A study of Capra hircus with 3 samples.

Results

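The genes described here are the 4 receptors of the epidermal growth factor (EGF) family, EGFR, ERBB2, ERBB3 and ERBB4, and 6 of their ligands, AREG, EREG, HBEGF, NRG1, BTC and TGFA. They were taken by symbol and NCBI gene ID, and all 10 had a row among the 13023 protein-coding genes with a deposited value. Mammary gland tissue of Laoshan dairy goats, 4 years old and in the third lactation, was removed surgically under anaesthesia on day 10 (early lactation), day 90 (peak lactation) and day 210 (late lactation) after parturition. The methods describe 15 samples from 5 goats, so the same goats appear to have been sampled at each stage, with earlier surgery on the gland before the later ones. Their RNA was mixed in equal parts at each stage, so each stage is 1 pooled library without any replicate. The pairing by goat is lost in the pools, and no goat received an experimental treatment. The values are FPKM, fragment counts divided by the length of the transcript and by sequencing depth, a scale on which levels of different genes can be set side by side.

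With 1 library per stage, neither the spread between goats nor that between libraries can be estimated, so no test was made and no p-value is given. A gene was called 2-fold apart from the ratio of its FPKM alone. Tissue pieces also mix cell types, and fewer cells of a type cannot be told apart from less RNA per cell. The libraries are named by their labels throughout, as the early, peak and late libraries. Between peak and late lactation, annotated lncRNA genes mostly ran opposite, in these columns, to the study's own list of differing lncRNAs. The labels peak and late are therefore uncertain, and every statement on these libraries would pass from one to the other if their columns were exchanged.

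Receptors of this family are tyrosine kinases that sit in the cell membrane and pair with one another once a ligand is bound. Each ligand carries an EGF-like domain and is made as a membrane-bound precursor, which proteases such as ADAM17 and ADAM10 cut to release the active factor. AREG and TGFA bind EGFR, whereas HBEGF, EREG and BTC bind EGFR and ERBB4, and NRG1 binds ERBB3 and ERBB4. ERBB2 has no known ligand and acts as a partner of the others, and ERBB3 has little kinase activity of its own. In the mammary gland, AREG is known as the main EGFR ligand of duct growth at puberty, and ERBB4 for its link to STAT5 in the secretory epithelium.

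The 4 receptors were within 2-fold between any pair of libraries, as were the ligands TGFA, NRG1 and HBEGF. The ligands AREG, EREG and BTC were not. AREG stood at 2.62 FPKM in the early, 24.2 FPKM in the peak and 0.426 FPKM in the late library. EREG had the same order at lower levels, and BTC had the opposite order, with its lowest value in the peak library.

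ERBB3 was the most abundant receptor in each library, with 36.3 FPKM in the early, 27.9 FPKM in the peak and 32.8 FPKM in the late library. EGFR, which binds most of the ligands measured here, had 21.5, 16.1 and 24.6 FPKM in the early, peak and late libraries. The partner receptor ERBB2 had 20.2, 18.1 and 22.4 FPKM in the same order. Each of these receptors was lowest in the peak library. ERBB4 had 16.4, 12.6 and 21.2 FPKM and was the least abundant receptor in every library. The highest receptor exceeded the lowest 2.21-fold in the early, 2.21-fold in the peak and 1.55-fold in the late library. Levels of the receptors lay above those of at least 71.1% of the protein-coding genes above 0 in the same library, the lowest position being that of ERBB4 in the peak library.

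The ERBB4 value is the sum of an annotated row and an assembled row, which span the same 1290630 nt. In the annotated row, the FPKM were 8.22 in the early, 4.97 in the peak and 7.62 in the late library. The assembled row held 8.18, 7.65 and 13.6 FPKM in the same order. Both rows were lowest in the peak library, but the log2 ratio of late over early lactation was -0.11 in the annotated row and 0.74 in the assembled row. The late library was thus above the early one for the assembled row only, and the sum follows it. Either row alone would lower the ERBB4 level and its position among all genes, and would widen the spread of the receptors given above.

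**Figure D1:**
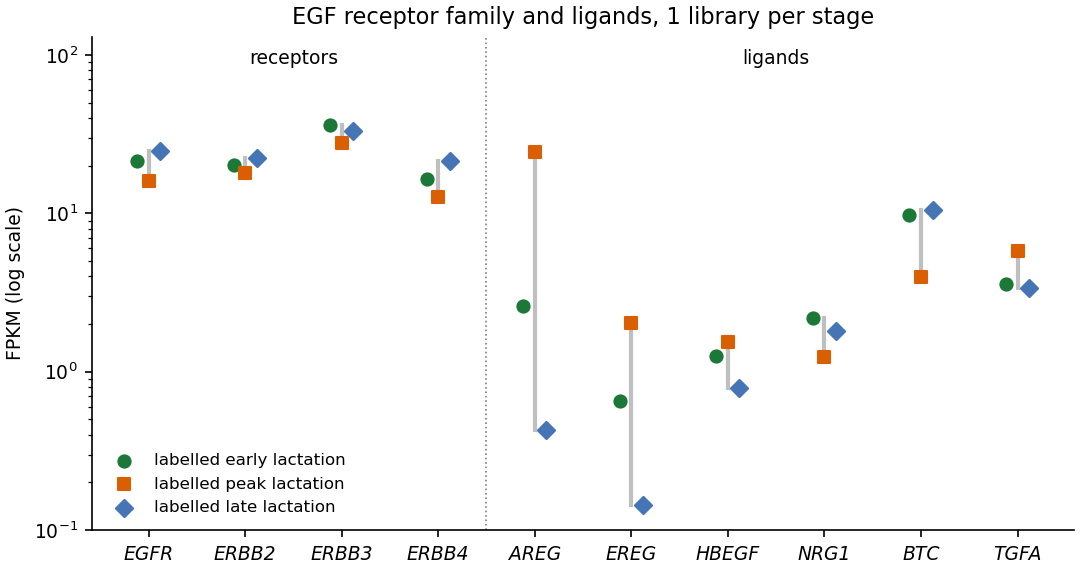
FPKM (vertical axis, log scale) of the 4 receptors and 6 ligands (horizontal axis) with 1 point for each stage's library, named by label, with a grey line from the lowest to the highest value. The receptors lie between 12.6 and 36.3 FPKM, whereas AREG spans from 0.426 to 24.2 FPKM.

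Among the ligands, AREG (amphiregulin) differed most between the libraries. Its log2 ratio was 3.21 for peak over early lactation, a 9.25-fold higher level. For late over early lactation the log2 ratio was -2.62, and for late over peak lactation it was -5.83, a difference of 56.8-fold. Within a library, 24.4% of the protein-coding genes above 0 had a lower FPKM than AREG in the early library, 87.9% in the peak library and 3.62% in the late library. Of 12426 protein-coding genes with at least 1 FPKM in either library, 71 had a larger log2 ratio of peak over early lactation than AREG. For late over peak lactation, 77 of 12466 such genes had a lower ratio. When 1 was added to every FPKM first, the log2 ratio of AREG was -1.34 for late over early and -4.14 for late over peak lactation.

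EREG (epiregulin), encoded beside AREG, had 0.652 FPKM in the early, 2.04 FPKM in the peak and 0.144 FPKM in the late library. Its log2 ratios were 1.65 for peak over early, -2.18 for late over early and -3.82 for late over peak lactation. EREG was thus highest in the peak and lowest in the late library, as AREG was, but its FPKM stayed below those of most genes. In the late library, 0.780% of the protein-coding genes above 0 had a lower value. The number of fragments behind such a low FPKM is unknown, and with a pseudocount of 1 the ratios of EREG to the early library were 0.88 and -0.53, short of 2-fold.

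BTC (betacellulin) was the most abundant ligand in the early library with 9.81 FPKM and in the late library with 10.6 FPKM, and had 3.97 FPKM in the peak library. The peak library was therefore the low one, by a log2 ratio of -1.30 against the early library. For late over peak lactation the log2 ratio was 1.41, and for late over early lactation it was 0.11. Of 12426 protein-coding genes with at least 1 FPKM in either library, 475 had a lower ratio of peak over early lactation than BTC.

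TGFA (transforming growth factor alpha) had 3.59 FPKM in the early, 5.80 FPKM in the peak and 3.37 FPKM in the late library. HBEGF (heparin-binding EGF-like growth factor) had 1.26, 1.54 and 0.792 FPKM in the same order. Both were highest in the peak and lowest in the late library, with less than 2-fold between any pair of libraries as deposited. HBEGF came closest to 2-fold, with a log2 ratio of -0.96 for late over peak lactation, and passed it at -1.18 when FPKM were rescaled without the 20 most abundant loci. NRG1 (neuregulin 1), the ligand of ERBB3 and ERBB4, had 2.19 FPKM in the early, 1.24 FPKM in the peak and 1.81 FPKM in the late library. Its lowest value was in the peak library, at a log2 ratio of -0.81 against the early library.

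The sum of the 6 ligands was 20.1 FPKM in the early, 38.8 FPKM in the peak and 17.1 FPKM in the late library. AREG made up 13.0% of this sum in the early, 62.4% in the peak and 2.49% in the late library. BTC made up 48.8%, 10.2% and 61.7% in the same order. The leading ligand was thus BTC in the early and late libraries and AREG in the peak library. Without AREG, the ligand sum was 17.5, 14.6 and 16.7 FPKM, so the higher sum of the peak library came from AREG. The receptor sum was 94.4 FPKM in the early, 74.6 FPKM in the peak and 101 FPKM in the late library. Receptor FPKM exceeded ligand FPKM 4.69-fold in the early, 1.92-fold in the peak and 5.91-fold in the late library. Among the receptors, ERBB3 made up 38.5%, 37.4% and 32.5% of the sum.

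**Figure D2:**
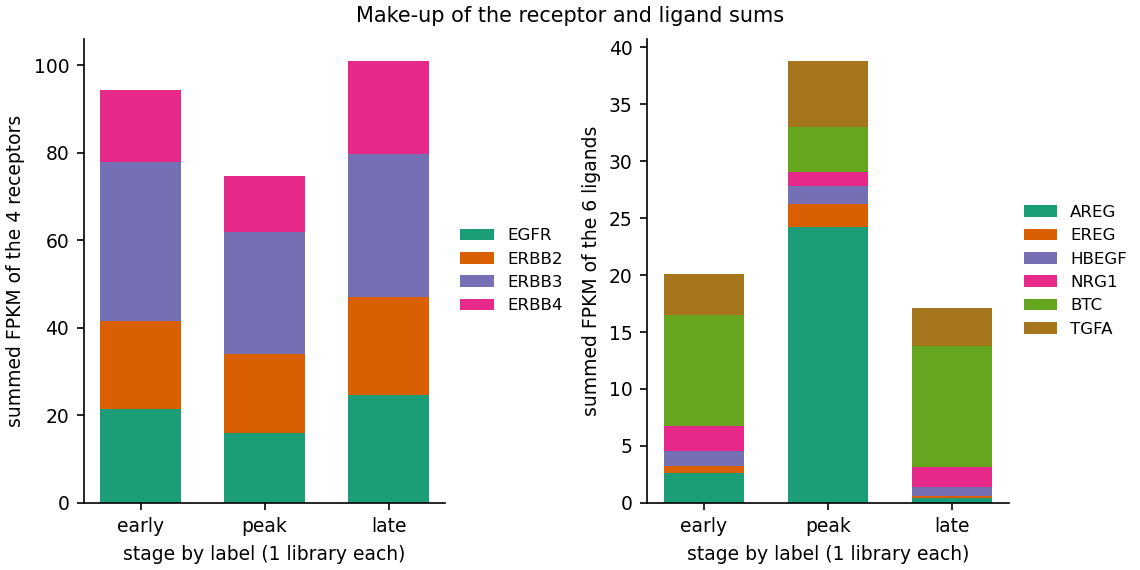
Summed FPKM (vertical axes) of the 4 receptors (left) and the 6 ligands (right) with 1 bar for each stage's library, named by label and divided by gene. AREG fills 62.4% of the ligand bar of the peak library and 2.49% of that of the late library, while the receptor bars keep a similar division.

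Between early and peak lactation, 3 of the 10 members were at least 2-fold apart, AREG and EREG higher and BTC lower in the peak library. By the same rule, 17.7% of the protein-coding genes above 0 in either library were called, 10.9% higher and 6.8% lower in the peak library. In the late against the early library, 2 members were called, AREG and EREG, both lower. Of all protein-coding genes, 8.71% were called there, 1.97% higher and 6.74% lower. In the late against the peak library, 3 members were called, AREG and EREG lower and BTC higher. The background there was 25.9%, with 8.56% higher and 17.4% lower. Each library takes part in 2 of these comparisons, so the counts are not independent. With so few members, the shares of 3, 2 and 3 in 10 rest on AREG, EREG and BTC alone, and nothing is read from them about the family as a whole.

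None of the 4 receptors was called in any comparison. Their log2 ratios of peak over early lactation lay between -0.42 and -0.16, with a median of -0.38, against a median of 0.01 over all 13020 protein-coding genes. All 4 were lower in the peak library on the scale deposited, and ERBB2 turned to 0.08 when FPKM were rescaled without the 20 most abundant loci, which moved the median of protein-coding genes to 0.25. The same rescaling gave -0.18 for EGFR, -0.14 for ERBB3 and -0.13 for ERBB4. For late over peak lactation, the log2 ratios of the receptors lay between 0.24 and 0.75, and the median of all protein-coding genes was -0.03. After the rescaling they were 0.40 for EGFR, 0.09 for ERBB2, 0.02 for ERBB3 and 0.54 for ERBB4, and that median was -0.24.

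**Figure D3:**
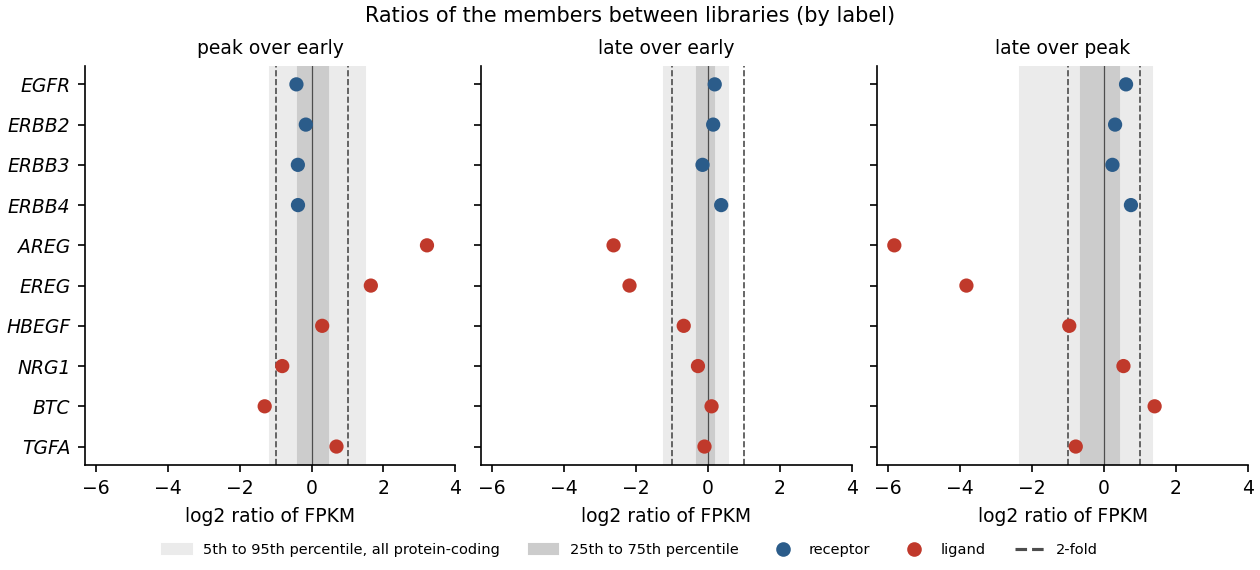
log2 ratio of FPKM (horizontal axis) of each member (vertical axis) for peak over early, late over early and late over peak lactation, with the 5th to 95th and 25th to 75th percentiles of all protein-coding genes shaded. AREG at 3.21, -2.62 and -5.83 lies outside the wider shaded range in each panel, and the 4 receptors lie within 2-fold in each.

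Several marker genes differed in the peak library as well. Of 6 measured secretory milk genes, all 6 were at least 2-fold lower in the peak than in the early library. By the same rule, 6.8% of all protein-coding genes were lower there and 10.9% higher. The milk genes summed to 209928 FPKM in the early, 59968 FPKM in the peak and 155885 FPKM in the late library. LALBA had 70053 FPKM in the early library and was listed at 0 in the late library, and the lower late sum rested on it. In the late library, 4 of the 6 were higher than in the early library, with a median log2 ratio of 0.24. PAEP, which encodes the whey protein beta-lactoglobulin, had 84874 FPKM in the early, 26999 FPKM in the peak and 83113 FPKM in the late library. The 8 luminal epithelial markers summed to 1677, 1158 and 1605 FPKM, led by ELF5, a transcription factor of the secretory lineage, with 879, 244 and 875 FPKM. The lower sum of the peak library was that of ELF5, since the other 7 summed to 797 FPKM in the early, 914 FPKM in the peak and 730 FPKM in the late library. ELF5 was the only one of the 8 at least 2-fold lower in the peak than in the early library, and the keratin gene KRT7 was the only one at least 2-fold higher, with 157 FPKM against 76.6 FPKM. Leukocyte markers summed to 305 FPKM in the early, 505 FPKM in the peak and 356 FPKM in the late library, and 2 of the 5 above 0 were at least 2-fold higher in the peak than in the early library, PTPRC, which encodes the pan-leukocyte antigen CD45, and the B cell gene CD79B. JCHAIN, which encodes the joining chain of secreted antibodies, made up most of the sum, and the other 5 markers summed to 38.8, 76.5 and 19.5 FPKM. PTPRC, CSF1R and CD79B were each at least 2-fold lower in the late than in the early library, beside 6.74% of all protein-coding genes. These 3 had the order of the libraries that AREG had, as did CD68. That order was not particular to leukocyte markers. KRT7 and KRT18 of the luminal, KRT5 and TP63 of the basal and PDGFRA and DCN of the fibroblast markers had it too. The remaining markers of these lists had other orders. Markers of several cell types, immune and secretory ones among them, thus differed alongside AREG and BTC, and their part in the ligand values was not tested. The T cell marker CD3E was listed at 0 in the early and peak libraries and had 1.43 FPKM in the late library.

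AREG, EREG and BTC lie on the same scaffold of the goat assembly used for the deposited loci, whose build was not determined here. On scaffold NW_005100697.1, EREG is listed from 4166665 to 4175004, AREG from 4230085 to 4239857 and BTC from 4534347 to 4690421. The gap from EREG to AREG is 55.1 kb, and that from AREG to BTC is 294 kb. The neighbouring genes with the shortest gap, AREG and EREG, shared the order of the libraries, and BTC had the opposite one. No other deposited locus overlapped any of the 10 members.

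Loci without a gene ID around these genes were also quantified. Next to EREG, the locus XLOC_013039, from 4162183 to 4164286, had 0.474 FPKM in the early, 1.47 FPKM in the peak and 0.0874 FPKM in the late library. Its order of the libraries was that of EREG. The single locus between EREG and AREG, XLOC_013041, had 20.5, 14.7 and 13.7 FPKM and lay less than 2-fold apart in each comparison. Beyond BTC, 17 of the 18 such loci up to PARM1, the next gene, were higher in the peak than in the early library, with a median log2 ratio of 0.84. Over all 34729 loci without a gene ID and above 0 in either library, 19348 were higher in the peak library, and that median was 0.15. Several of the 18 loci nearly abut, such as XLOC_013043, ending at 4692211, and XLOC_013044, starting at 4692280. Whether they are separate transcripts was not tested. PARM1 had 2.38 FPKM in the early, 4.63 FPKM in the peak and 1.36 FPKM in the late library, so it was highest in the peak library too. BTC itself, at -1.30, thus differed in sign from most loci on its far side, whereas the 4 loci between AREG and BTC had a median of -0.10. The strand and coding potential of these loci were not analysed here.

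**Figure D4:**
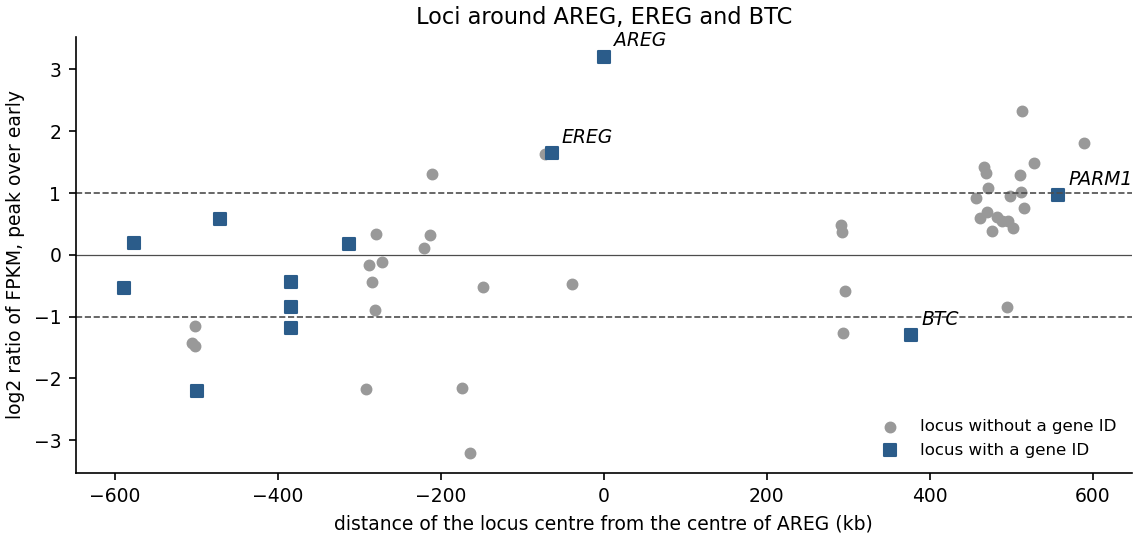
log2 ratio of FPKM for peak over early lactation (vertical axis) of each deposited locus within 600 kb of AREG, by the distance of its centre from that of AREG in kb (horizontal axis). AREG at 3.21 and EREG at 1.65 lie above the dashed 2-fold line and BTC at -1.30 below it, and most loci without a gene ID beyond BTC lie above 0.

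The receptors and the other ligands lie on scaffolds of their own. EGFR is listed on NW_005100909.1 from 785628 to 852403, ERBB2 on NW_005100886.1 from 15813178 to 15830475 and ERBB3 on NW_005100668.1 from 7239586 to 7260947. ERBB4 spans 1167741 to 2458370 on NW_005100623.1. TGFA is listed on NW_005100769.1 from 13704713 to 13814809, HBEGF on NW_005100721.1 from 9094109 to 9105945 and NRG1 on NW_005100953.1 from 10455186 to 10579717. Exons and transcript isoforms were not analysed here, so forms of NRG1 or ERBB4 cannot be told apart.

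Other genes of the pathway were taken from lists by role, and 66 of 73 listed genes had a value. Of these 66, 9 were at least 2-fold apart between early and peak lactation, 6 higher and 3 lower in the peak library, beside the 17.7% of all protein-coding genes. In the late against the early library, 1 (NRG2) was higher and 4 were lower, beside 8.71% of all protein-coding genes called. For late over peak lactation, 3 were higher and 10 were lower, beside 25.9%. Their median log2 ratios were 0.06, -0.08 and -0.12 for peak over early, late over early and late over peak lactation, against 0.01, -0.03 and -0.03 over all protein-coding genes.

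Among the other ligands, NRG2 alone of 5 had a value, with 0.475 FPKM in the early, 0.816 FPKM in the peak and 1.08 FPKM in the late library. EGF, EPGN, NRG3 and NRG4 were not analysed here, so the ligand sums above leave them out. Of the 8 genes that release ligands from the membrane, none was called against the early library. Of all protein-coding genes, 17.7% were called there for the peak and 8.71% for the late library. ADAM10, a protease that sheds EGF and BTC, had 22.8, 26.3 and 20.1 FPKM in the early, peak and late libraries. Only FRMD8, which stabilizes the ADAM17 complex, was called in this list, with 13.1 FPKM in the peak and 6.49 FPKM in the late library. Adaptors and the RAS-ERK kinases were likewise within 2-fold, with 1 exception among 15. The shares of all protein-coding genes called were 17.7% for peak over early, 8.71% for late over early and 25.9% for late over peak. GAB1, a docking protein that links the receptors to PI3K, had 15.2 FPKM in the early, 6.48 FPKM in the peak and 20.2 FPKM in the late library, the same order as BTC.

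In the PI3K-AKT and phospholipase list, AKT1 was the most abundant of 12 genes with 90.0 FPKM in the early, 49.8 FPKM in the peak and 88.1 FPKM in the late library. Across all protein-coding genes, 17.7% were called for peak over early, 8.71% for late over early and 25.9% for late over peak. PLCG2, a phospholipase best known from blood cells, was the only gene of the 12 called, with 4.69, 13.0 and 4.13 FPKM. It was highest in the peak library, as were 5 of the 6 leukocyte markers and some markers of other cell types, such as KRT7 and PDGFRA. Of 19 feedback inhibitors, DUSP4 was the most abundant. This phosphatase, which inactivates ERK and related kinases, had 116 FPKM in the early, 33.5 FPKM in the peak and 123 FPKM in the late library. DUSP5, another ERK phosphatase, was higher in the peak library at much lower levels, with 0.552, 1.92 and 0.524 FPKM. SPRY4, an inhibitor of RAS-ERK signalling, had 1.58, 0.901 and 2.30 FPKM. The feedback inhibitors therefore did not share a direction. Between early and peak lactation, 17 of 19 were within 2-fold, where 17.7% of all protein-coding genes were called.

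The list of ERK target genes held the most calls. Of 11 measured, 4 were at least 2-fold higher and 1 lower in the peak than in the early library, beside 10.9% higher and 6.8% lower among all protein-coding genes. Against the peak library, 7 were at least 2-fold lower in the late library, beside 17.4% of all protein-coding genes, with a median log2 ratio of -1.21. JUNB, a subunit of the AP-1 transcription factor, had 18.6 FPKM in the early, 43.9 FPKM in the peak and 8.68 FPKM in the late library. CCND1, the cyclin D1 gene, had 5.93, 13.5 and 4.17 FPKM, and PHLDA1 had 2.73, 5.81 and 1.40 FPKM. These 3 genes shared the order of the libraries with AREG, as did MCL1 and IER3. Genes of other pathway lists, such as ADAM10, FRMD8, PLCG2 and DUSP5, had that order too. How many of all protein-coding genes have it was not counted. The measured genes EGR1, FOS, MYC, ETV4, ETV5 and HMGA1 had other orders. FOS, the partner of JUN proteins in AP-1, had 42.1 FPKM in the early, 19.9 FPKM in the peak and 10.2 FPKM in the late library. MCL1, the most abundant gene of the list, had 77.9, 89.0 and 59.8 FPKM. ETV4 was listed at 0 in the late library and had under 1 FPKM in both others.

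**Figure D5:**
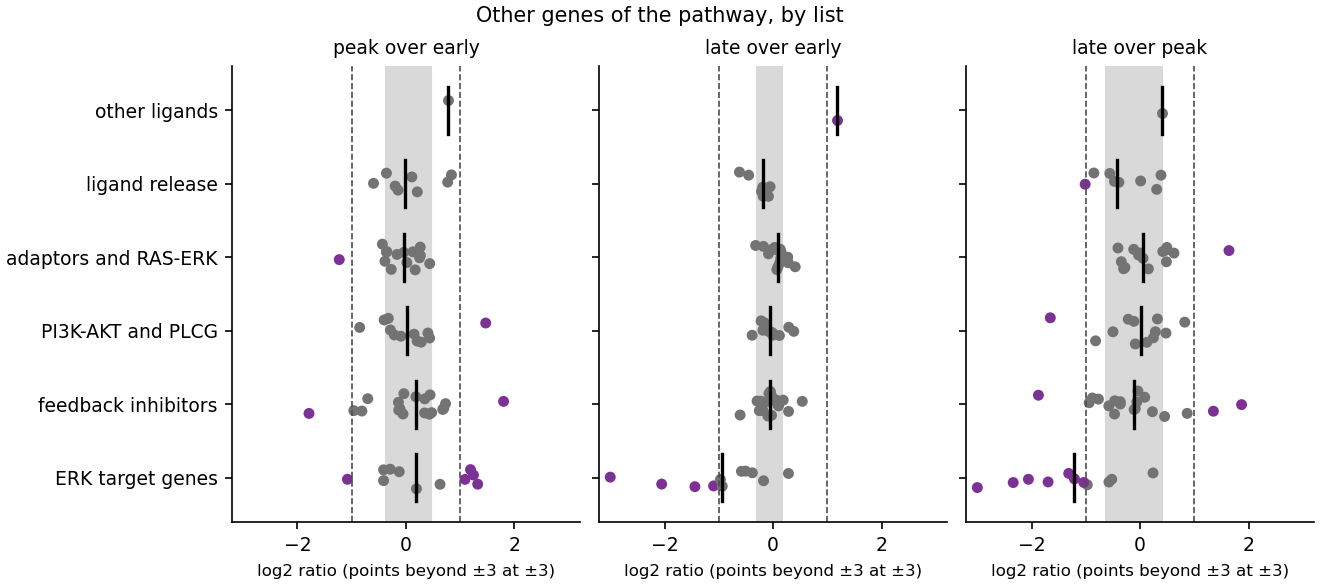
log2 ratio of FPKM (horizontal axes, points beyond 3 in either direction drawn at 3) of the 66 measured pathway genes by list (vertical axis), for peak over early, late over early and late over peak lactation. Purple points are at least 2-fold apart, black bars are list medians and the shaded band holds the middle of all protein-coding genes from the 25th to the 75th percentile. In the panel of late over peak lactation, 7 ERK target genes lie past the lower 2-fold line.

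BTC had the widest range among the 7 members with at least 1 FPKM in all 3 libraries, a difference of 1.41 on the log2 scale between its highest and lowest library. The 3 protein-coding genes closest to it, by Euclidean distance between log2 FPKM centred per gene over the 3 libraries, were SFXN2, C3H1orf210 and SLC6A8, out of 11087 genes. SFXN2 had 7.19 FPKM in the early, 2.97 FPKM in the peak and 7.84 FPKM in the late library, a distance of 0.019. SLC6A8, the creatine transporter gene, had 38.7, 15.4 and 41.8 FPKM, a distance of 0.021. A likeness over only 3 libraries is a description of their order and fold.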

How the data were processed

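Total RNA of mammary gland from 5 goats was pooled by the authors into 1 stranded library per stage. Per the labels and the methods, reads were trimmed, mapped with TopHat2 2.0.9 and assembled with Cufflinks 2.1.1, and the deposited values are FPKM that the authors computed with Cuffdiff for 50041 loci. The methods name a goat genome version for mapping and an NCBI goat reference for assembly, and which of them the scaffolds of the loci belong to was not determined here. Starts were raised by 1 to count from 1.

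Columns were assigned to stages by the labels, and no other column of per-sample values was left over. Gene IDs were matched to symbols in the RefSeq gene table of ARS1.2, for 14403 of 15274 loci with a single ID, and loci of one ID were summed. No sequences of the members were used. Ratios were taken with an FPKM of 0 set to 0.001, and genes were called at 2-fold either way. Read numbers per gene are unknown, so no interval is given. At low values of loci shorter than 2500 nt, the commonest ratio of early over late FPKM was 0.90. Equal numbers of fragments thus gave similar FPKM in the early and late libraries, and the peak library was not examined in this way. Of values with 7 digits, 95.7% to 99.3% ended in 5, and whether a value is a mean of several runs is not given in the sources used here.

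The design took ratios without a test, since there is 1 library per stage. Members, gene lists and alternatives were chosen with earlier results of these data known. The text names all members, the most abundant gene of each list and up to 4 pathway genes per list that were 2-fold apart with at least 1 FPKM in either library. A gene that this rule selects is not reported here. ETV4, CD3E, LALBA, KRT7, PTPRC, CSF1R, CD79B, S100B, NGFR and the loci near AREG were named after their values were seen. So were CD68, KRT18, KRT5, TP63, PDGFRA, DCN, OXTR, IER3, EGR1, MYC, ETV5 and HMGA1. Alternatives were pseudocounts of 0.1 and 1, a minimum of 1 FPKM, centring, rescaling to a common sum with and without the 20 most abundant loci, the most abundant locus per gene, folds of 1.5 and 4, and the exchange of the columns labelled peak and late. Python 3.11.15, numpy 2.4.6, pandas 2.3.3 and matplotlib 3.10.9 were used. The calling was run on simulated data, with changes of 4-fold set into the early values under small noise. That run checks the calculation only and does not measure false calls between real libraries.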

Additional observations from a re-analysis of the deposited data

How the results depend on the processing

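No paired analysis was possible because the 3 stages have a single library each, and no replicate could be left out. With the peak and late columns exchanged, the signs turned for 26 of 30 member ratios, and this reversed the log2 ratios of AREG to -2.62 for peak over early, 3.21 for late over early and 5.83 for late over peak lactation. Those of EREG became -2.18, 1.65 and 3.82, and BTC became 0.11 for peak over early and -1.41 for late over peak lactation. The pathway genes called were then 5 for peak over early and 9 for late over early, beside 8.71% and 17.7% of all protein-coding genes. A pseudocount of 1 left 2 members and 6 pathway genes for peak over early, and 1 member and 3 pathway genes for late over early. For late over peak it left 3 members and 7 pathway genes. Of all protein-coding genes, 9.17%, 2.13% and 15.2% were then called in the same order. A minimum of 1 FPKM left 1 member for late over early, since EREG was under it in both libraries, beside 5.88% of protein-coding genes. At a fold of 1.5, 5 members were called for peak over early, 3 for late over early and 7 for late over peak. The pathway genes were 21, 9 and 22. The shares of all protein-coding genes were 36.8% for peak over early, 17.8% for late over early and 44.0% for late over peak. At a fold of 4, 1 member was called for peak over early, 2 for late over early and 2 for late over peak. The pathway genes were 0, 2 and 3, beside 3.56%, 3.28% and 8.66% of all protein-coding genes. Looser and stricter folds move counts by construction. Rescaling without the 20 most abundant loci gave 9 pathway genes higher and 1 lower in peak than early lactation, against 6 and 3 as deposited. For late over peak it gave 18 pathway genes, 15 of them lower, against 13 and 10 as deposited, and 4 members with HBEGF at -1.18. Of all protein-coding genes, 20.6% were then called for peak over early and 27.4% for late over peak. This rescaling moved the median log2 ratio of protein-coding genes to 0.25 for peak over early and -0.24 for late over peak lactation. Rescaling to a common sum moved it to 0.15 for peak over early lactation and turned TGFA for late over early lactation from -0.09 to 0.04. Apart from the exchange, ERBB2 (given above) and TGFA were the members whose sign turned under a listed alternative. What limits every value is the single pooled library and the unknown number of fragments per gene.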

Other observations

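Summed basal markers differed little between the libraries. The 7 measured basal and myoepithelial markers, led by the smooth muscle actin gene ACTA2, summed to 227 FPKM in the early, 231 FPKM in the peak and 216 FPKM in the late library. Endothelial markers, led by PECAM1 with 47.4, 46.9 and 38.1 FPKM, summed to 123, 111 and 135 FPKM. None of the 5 was called in any comparison. PECAM1 was lowest in the late library, whereas the other 4 were each highest there. Without PECAM1 the sum was 75.7 FPKM in the early, 64.6 FPKM in the peak and 96.7 FPKM in the late library. Fibroblast markers summed to 664, 549 and 542 FPKM without a common direction in the peak library, where COL3A1, a fibrillar collagen gene, was lower at 123 FPKM against 255 FPKM in the early library. Of these lists, 1 of 7 basal markers and 3 of 6 fibroblast markers were called between early and peak lactation, beside 17.7% of all protein-coding genes. The basal marker called was OXTR, with 3.83 FPKM in the early, 1.14 FPKM in the peak and 5.43 FPKM in the late library. Of the fibroblast markers, 1 was higher and 2 were lower in the peak library.

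Adipocyte markers were highest in the early library, with a sum of 18.1 FPKM against 5.85 FPKM in the peak and 6.41 FPKM in the late library. ADIPOQ, the adiponectin gene, held most of it, with 15.1, 4.10 and 5.69 FPKM. The 3 measured Schwann cell and nerve markers summed to 30.0, 16.3 and 23.3 FPKM, led by SOX10 with 27.5, 14.4 and 22.3 FPKM. The other 2 markers did not share its order, S100B having 2.16, 0.746 and 0.604 FPKM and NGFR 0.335, 1.19 and 0.402 FPKM. JCHAIN was the most abundant leukocyte marker with 266, 429 and 337 FPKM.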
